A study of Mus musculus with 8 samples.

Results

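The genes described are those of the core Notch pathway in the E18.5 mouse heart, chosen by name and not by their values: the receptors Notch1, Notch2, Notch3 and Notch4, the ligands Jag1, Jag2, Dll1 and Dll4, and the target genes Heyl and Hes1. The arrays carried 14 probes for these 10 genes among 41174 probes in all, and 12 of the 14 probes, at least 1 for each gene, were bright enough to be tested. RNA was taken from whole hearts of 4 wild-type (WT) and 4 SIRT1 knockout (SIRT1 KO) embryos at E18.5, 1 heart per one-color Agilent array. SIRT1 is an NAD+-dependent protein deacetylase of the nucleus. The SIRT1 KO embryos were whole-body germ-line knockouts (Sirt1-/-) and all embryos came from crosses of heterozygous parents, so that by design SIRT1 was absent from every cell type throughout development. Both genotypes were labelled C57BL/6 (C57BL/6J in the study's methods) and on chow diet with no treatment, hearts of both sexes were used, and the comparison was WT against SIRT1 KO.

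Notch receptors are single-pass membrane proteins that are activated by Jagged and Delta-like ligands on a neighbouring cell. Ligand binding exposes the receptor to cleavage by an ADAM protease and then by γ-secretase, and the released intracellular domain enters the nucleus and, with the DNA-binding protein RBPJ and a Mastermind co-activator, turns on target genes of the Hes and Hey families. In the heart the pathway is known for its roles in endocardium, valve formation, ventricular trabeculation, arterial endothelium and vascular smooth muscle.

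None of the 10 core genes passed the test between WT and SIRT1 KO hearts. Of the 12 tested probes, 0 were higher and 0 were lower in SIRT1 KO hearts at an adjusted p of 0.05 by limma, where 3.97% of the 25615 tested probes were higher and 0.91% were lower, 4.88% in either direction. At an unadjusted p of 0.05, 1 of the 12 probes passed by limma and 1 by the methods' analysis of variance, against 21.5% and 20.1% of all tested probes, and 0 of the 12 passed after adjustment by the analysis of variance, against 2.13%. The smallest adjusted p among the 12 probes was 0.170 in limma. The 95% confidence intervals of the 12 differences lay between a 0.645-fold and a 1.40-fold level in SIRT1 KO against WT hearts, and 11 of the 12 included no difference. With 4 hearts per genotype, the intervals leave room for changes within those bounds, and a p above the threshold does not show that the levels were equal.

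The scale is the log2 of the spot's signal after the 75th percentile of its array was subtracted, so that 0 is a spot brighter than 75% of the probes and each unit is a doubling of the signal. Probes differ in how well they bind, so that levels are compared between hearts for 1 probe and not between probes. The 75th percentile was 939 to 1033 intensity units on the WT arrays and 777 to 906 on the SIRT1 KO arrays, the share of probes well above background ranged from 59.5% to 64.9%, and none was saturated. Each genotype was hybridized on a slide of its own, scanned on a day of its own, so that genotype cannot be told apart from slide or scan day. Sirt1 itself has 2 probes on the array, and neither was lower in SIRT1 KO hearts past the threshold. Probe A_52_P358612 was higher by 0.54 on the log2 scale (SE 0.11, limma adjusted p = 0.0323). This call held in 2 of the 8 fits that leave out 1 heart. It did not hold with the methods' analysis of variance (adjusted p = 0.0865) or with the replicate number as a block (limma adjusted p = 0.0645). Without scaling the difference was 0.32 and did not pass (adjusted p = 0.117). Probe A_51_P141152 differed by -0.11 (SE 0.11, limma adjusted p = 0.589). The knockout label therefore is not checked by these probes, whose position against the deleted exons is not given in the sources used here, and every direction below is for hearts labelled SIRT1 KO.

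**Figure D1:**
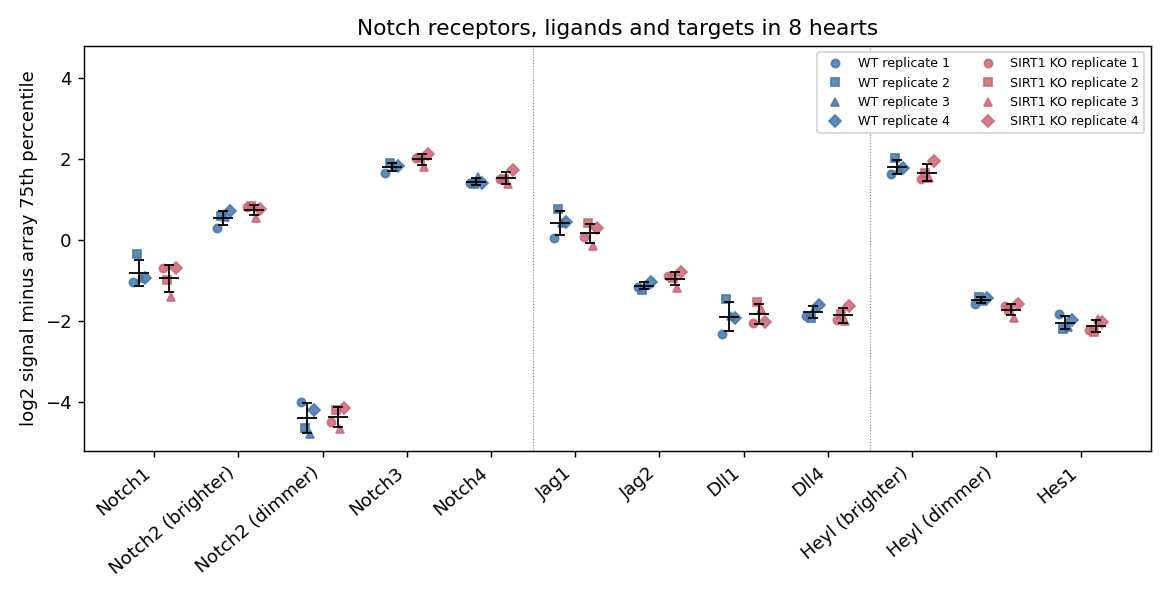
Log2 signal minus the array's 75th percentile (vertical axis) for the 12 tested probes of the Notch receptors, ligands and targets in each of 4 WT (blue) and 4 SIRT1 KO (red) hearts, with marker shapes for the replicates, and the mean and SD of each genotype in black. The genotypes overlapped for 11 of the 12 probes, the exception being the dimmer Heyl probe, and positions along the axis are not comparable between probes.

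Among the receptors, Notch1, which is essential for endocardial and trabecular development, was measured by probe A_52_P183088. Its level was -1.02, -0.35, -0.93 and -0.92 in WT replicates 1 to 4 and -0.69, -0.98, -1.39 and -0.69 in SIRT1 KO replicates 1 to 4. WT replicate 2 stood above all other hearts and SIRT1 KO replicate 3 below them, and the remaining hearts of both genotypes were intermixed. The means were -0.81 ± 0.31 in WT and -0.94 ± 0.33 in SIRT1 KO hearts (SD, n = 4 each), a difference of -0.13 (SE 0.19, limma adjusted p = 0.729, exact permutation p = 0.543). The sign of this difference rested on those hearts, since it was 0.02 when the first of them was left out and 0.02 when the second was.

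Notch2, the receptor needed in neural crest-derived smooth muscle of the outflow tract, had 3 probes. The brightest, A_52_P289213, read 0.32, 0.60, 0.58 and 0.74 in the WT hearts and 0.83, 0.85, 0.56 and 0.78 in the SIRT1 KO hearts. Replicates 1, 2 and 4 of SIRT1 KO were above every WT heart, and replicate 3 lay within the WT range. The difference was 0.20 (SE 0.11, limma adjusted p = 0.328, exact permutation p = 0.114), and -0.02 where arrays were not scaled to each other. A second probe, A_52_P448796, was far dimmer than the array's 75th percentile, at -4.39 ± 0.37 in WT and -4.37 ± 0.24 in SIRT1 KO hearts (SD, n = 4 each), and every SIRT1 KO heart lay within the WT range. Its difference was 0.03 (SE 0.19, limma adjusted p = 0.955), with a sign that turned under 3 of the scalings tried. The third probe, A_51_P216397, did not exceed background clearly in any of the 8 hearts and was not tested.

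Notch3, the receptor of pericytes and arterial smooth muscle, read 1.66, 1.91, 1.81 and 1.85 in the WT hearts and 2.02, 2.04, 1.81 and 2.13 in the SIRT1 KO hearts (probe A_51_P220162). As for Notch2, SIRT1 KO replicates 1, 2 and 4 lay above every WT heart and replicate 3 lay among them. The means of 1.81 ± 0.11 and 2.0 ± 0.14 (SD, n = 4 each) differed by 0.19 (SE 0.09, limma adjusted p = 0.266, exact permutation p = 0.114), and by -0.03 without scaling between arrays. Notch4, which is expressed mainly in endothelium, read 1.40, 1.39, 1.57 and 1.42 in the WT hearts and 1.50, 1.52, 1.39 and 1.73 in the SIRT1 KO hearts (probe A_51_P195875). Its highest heart was SIRT1 KO replicate 4, and the other 7 hearts overlapped. The difference of 0.09 (SE 0.09, limma adjusted p = 0.589, exact permutation p = 0.343) became -0.04 with median scaling and -0.13 without scaling.

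Across the 4 receptors, represented by their brightest probes, the median difference was 0.14, with 3 fitted above 0 and 1 below, beside a median of 0.01 over all tested probes. Without scaling between arrays the 4 receptors were all fitted below 0, but so was the median of all probes, at -0.21. Set against that all-probe median, 3 receptors lay above and 1 below under each of the scalings and background corrections tried.

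Jag1, the ligand mutated in Alagille syndrome with its cardiac outflow defects, had 2 probes. The brighter, A_52_P634090, read 0.06, 0.77, 0.43 and 0.46 in the WT hearts and 0.09, 0.42, -0.13 and 0.31 in the SIRT1 KO hearts. WT replicate 2 was the highest and SIRT1 KO replicate 3 the lowest, as for Notch1, and the other 6 hearts overlapped. The means were 0.43 ± 0.29 and 0.17 ± 0.24 (SD, n = 4 each), and the difference of -0.26 was the most negative among the 12 probes (SE 0.17, limma adjusted p = 0.406, exact permutation p = 0.200). All 4 SIRT1 KO hearts were below the WT mean. The other probe, A_51_P280906, was well above background on 1 WT and 1 SIRT1 KO array and was not tested.

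Jag2, the second Jagged ligand, read -1.15, -1.23, -1.09 and -1.02 in the WT hearts and -0.89, -0.94, -1.17 and -0.78 in the SIRT1 KO hearts (probe A_51_P451338). Again SIRT1 KO replicates 1, 2 and 4 were above every WT heart while replicate 3 was within the WT range. The difference was 0.18 (SE 0.10, limma adjusted p = 0.322, exact permutation p = 0.114) and -0.04 without scaling between arrays.

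Dll1, a Delta-like ligand with a role in fetal arterial endothelium, was printed as 10 spots per array (probe A_51_P306017), so that the error between spots can be set beside the spread between hearts. Its level was -2.30, -1.44, -1.87 and -1.93 in the WT hearts and -2.04, -1.53, -1.69 and -2.01 in the SIRT1 KO hearts, with replicate 2 of each genotype the highest and replicate 1 the lowest. The SD between the repeat spots of 1 array was 0.0937 to 0.222, and the SD between hearts was 0.352 for WT and 0.250 for SIRT1 KO. Repeat spots of 1 array carry no error of labelling or hybridization, which the spread between hearts includes, and the genotypes overlapped almost fully. The difference was 0.07 (SE 0.19, limma adjusted p = 0.863, exact permutation p = 0.743), and it changed sign with median scaling, without scaling, and when WT replicate 1 or SIRT1 KO replicate 2 was left out.

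Dll4, the ligand of arterial and sprouting endothelial cells, read -1.87, -1.92, -1.67 and -1.61 in the WT hearts and -1.97, -1.83, -1.997 and -1.61 in the SIRT1 KO hearts (probe A_51_P384402). WT replicates 3 and 4 and SIRT1 KO replicate 4 were the highest and the other hearts lay close together. The difference was -0.08 (SE 0.11, limma adjusted p = 0.699, exact permutation p = 0.457), and 0.01 after the normexp background correction. The 4 ligands together had a median difference of -0.01, with 2 fitted above 0 and 2 below, and relative to the all-probe median 2 lay on each side under each of the scalings and background corrections tried.

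Of the target genes, Heyl, a repressor of the Hey family found in vascular smooth muscle, was read by 2 probes that were both well above background on all 8 arrays. The brighter probe, A_52_P337259, read 1.65, 2.04, 1.75 and 1.79 in the WT hearts and 1.52, 1.68, 1.54 and 1.97 in the SIRT1 KO hearts. SIRT1 KO replicates 1 and 3 were the lowest of the 8 hearts, whereas replicate 4 exceeded all WT hearts but replicate 2. The difference was -0.13 (SE 0.12, limma adjusted p = 0.563, exact permutation p = 0.343).

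The dimmer Heyl probe, A_51_P339417, was the single member probe at which the genotypes did not overlap. It read -1.56, -1.40, -1.50 and -1.42 in the WT hearts and -1.63, -1.72, -1.91 and -1.58 in the SIRT1 KO hearts. Each SIRT1 KO heart was below each WT heart, although SIRT1 KO replicate 4 and WT replicate 1 lay next to each other. The means of -1.47 ± 0.07 and -1.71 ± 0.15 (SD, n = 4 each) differed by -0.24, a 0.849-fold level (95% interval 0.738 to 0.976), and the exact permutation p was 0.0286, the smallest that 4 hearts against 4 can give. After adjustment over all tested probes this did not pass (limma adjusted p = 0.170). The probe passed with median scaling (-0.37, adjusted p = 0.0414) and without scaling (-0.46, adjusted p = 0.0293), the settings under which the median of all probes itself moved to -0.12 and -0.21. Non-overlap at 1 of 12 member probes (8.33%) compares with 13.7% of all tested probes, made up of 5.11% that were lower and 8.63% that were higher in SIRT1 KO hearts. The 2 Heyl probes were fitted in the same direction under each of the alternatives tried.

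Hes1, the widely expressed repressor that is among the first genes to respond to Notch activation, read -1.81, -2.19, -2.13 and -1.98 in the WT hearts and -2.21, -2.25, -1.94 and -2.03 in the SIRT1 KO hearts (probe A_51_P498093). WT replicate 1 was the highest for Hes1, and the genotypes overlapped. The same heart was the lowest WT heart for Notch1, Notch2 (brightest probe), Notch3, Jag1, Dll1 and both Heyl probes. The difference was -0.08 (SE 0.11, limma adjusted p = 0.728, exact permutation p = 0.486).

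**Figure D2:**
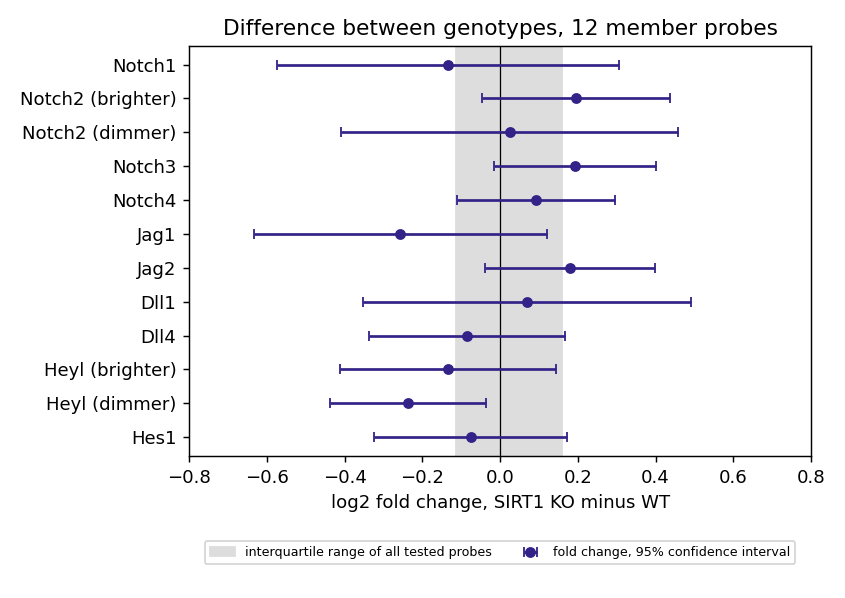
Fitted log2 difference, SIRT1 KO minus WT (horizontal axis), with its 95% confidence interval for each of the 12 tested probes, and in grey the interquartile range of the differences of all 25615 tested probes, from -0.11 to 0.16. The interval of the dimmer Heyl probe lies wholly below 0 and the other 11 include 0; without scaling between arrays, where the median of all probes is -0.21, the 10 genes' brightest probes were all fitted below 0.

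The sizes of the differences were those of an average probe. The median difference over the 10 genes was -0.003, with 5 fitted above 0 and 5 below, and the median of its absolute size over the 12 probes was 0.134, beside 0.133 over all tested probes. The standard errors were alike as well, with a median of 0.111 for the 12 probes and 0.105 for all. Notch1, Dll1, Jag1 and the dim Notch2 probe had SEs of 0.17 to 0.19, so that their intervals were the widest, and Notch3, Notch4, Jag2 and the dimmer Heyl probe had SEs of 0.09 to 0.10.

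The hearts themselves differed in how many Notch genes were high. With each gene's genotype mean subtracted, WT replicate 1 was above the mean for 1 of the 10 genes, with a median deviation of -0.15, while the other WT hearts were above it for 6 genes each. SIRT1 KO replicate 3 was above the mean for 2 genes, with a median deviation of -0.17, and SIRT1 KO replicate 4 for 9 genes, with a median deviation of 0.15. WT replicate 1 and SIRT1 KO replicate 3 were each the lowest heart of their genotype for Notch1, Notch2, Notch3 and Jag1, and of the 10 genes, Hes1 alone was above its genotype mean in WT replicate 1.

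**Figure D3:**
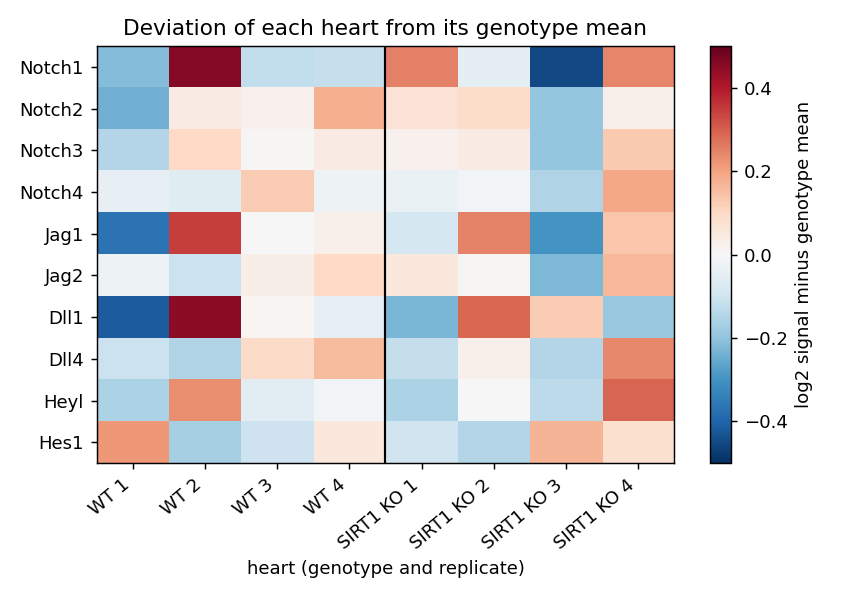
Deviation of each heart (columns) from its own genotype mean, in log2 units, for the brightest probe of each of the 10 Notch genes (rows), with red above and blue below the mean. WT replicate 1 and SIRT1 KO replicate 3 are mostly blue, SIRT1 KO replicate 4 is mostly red, and in those first 2 hearts the Hes1 row is red where the rows of Notch1, Notch2, Notch3 and Jag1 are blue.

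These shared deviations give a description of which genes moved together, over 8 hearts that share 2 slides, after the genotype means were removed. The highest correlation among the members was that of Notch3 with Jag1 (r = 0.88), followed by Notch1 with Notch3 (r = 0.83) and Notch2 with Notch3 (r = 0.81). Dll4 was as close to Notch4 (r = 0.80) and to Jag2 (r = 0.80), and Notch4 to Jag2 (r = 0.78). Hes1 correlated negatively with the first of these genes, though not in every heart, with r = -0.78 to Jag1, -0.69 to Notch2, -0.66 to Notch3 and -0.62 to Notch1. Dll1 likewise correlated negatively with Hes1 (r = -0.61) and with Jag2 (r = -0.46). Heyl, the other target gene, correlated positively with Jag1 (r = 0.77), Notch3 (r = 0.77), Notch1 (r = 0.67) and Notch2 (r = 0.37).

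Among 133 genes of the pathway and cell marker lists, the closest to Dll4 were Esam, an endothelial junction protein (r = 0.97), and Mfng, a Fringe enzyme that adds sugars to Notch (r = 0.95). Notch4 was closest to Sox7, an arterial endothelial transcription factor (r = 0.85), and to the ubiquitin ligase Cbl (r = 0.82), and Jag2 to the endothelial phosphatase Ptprb (r = 0.91) and the kinase Aak1 (r = 0.86). Dll1 was closest to Dtx4, of the Deltex family of ubiquitin ligases (r = 0.93), and to the endothelial gene Plvap (r = 0.88). The genes nearest to Notch1 were Pofut1, the enzyme that adds O-fucose to Notch (r = 0.92), and the co-activator Maml2 (r = 0.86), and those nearest to Jag1 were Maml2 (r = 0.92) and the fibroblast receptor Pdgfra (r = 0.90). Notch2 was closest to Furin, the protease that processes the receptor in the Golgi (r = 0.92), whereas Notch3 was closest to Aak1 (r = 0.94) and the acetyltransferase Crebbp (r = 0.92). Heyl was nearest to Numb, an adaptor that antagonises Notch (r = 0.91), and to the arterial ligand Efnb2 (r = 0.90), and Hes1 to its relative Hes6 (r = 0.92) and to Poglut1, which adds O-glucose to Notch (r = 0.83). These are the highest of many correlations over few hearts, and they carry no test.

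The promoters of the core genes were read for the core sequence bound by RBPJ, TGGGAA, and its longer form GTGGGAA, on both strands. The short form is contained in the long one. RefSeq windows of the GRCm38.p6 assembly, from 250 bases before to 50 bases after each transcription start, were at hand for 8 of the 10 genes, in 9 windows, the genes without one being Heyl and Hes1. None of the 9 windows held TGGGAA, beside 25.6% of 32851 windows of the same length. The windows of Notch3 and Jag1, the pair with the highest correlation between hearts, are shown for this absence, written 5′ to 3′ along the strand of the gene.
Notch3, chr17:32166841-32167140, minus strand: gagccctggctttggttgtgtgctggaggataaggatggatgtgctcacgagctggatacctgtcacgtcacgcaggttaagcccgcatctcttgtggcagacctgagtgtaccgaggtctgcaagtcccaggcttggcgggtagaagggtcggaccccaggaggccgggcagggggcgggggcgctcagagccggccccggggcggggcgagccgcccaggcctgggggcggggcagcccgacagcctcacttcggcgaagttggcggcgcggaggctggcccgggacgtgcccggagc
Jag1, chr2:137116471-137116770, minus strand: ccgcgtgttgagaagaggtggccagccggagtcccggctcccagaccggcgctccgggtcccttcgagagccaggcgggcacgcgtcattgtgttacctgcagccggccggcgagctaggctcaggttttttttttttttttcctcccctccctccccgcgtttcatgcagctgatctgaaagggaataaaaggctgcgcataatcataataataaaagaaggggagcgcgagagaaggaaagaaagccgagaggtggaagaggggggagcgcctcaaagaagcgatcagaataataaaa

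For contrast, windows were at hand for 8 of the 14 other target genes of the pathway, in 9 windows. Of these 9 windows, 4 held the core sequence, each in a different gene, beside 25.6% of all windows. Such small counts were not tested against that share. Hes5 and Hey2, shown for their matches, held the core sequence on both strands, in capitals below. Each match extends to the long form, which 6.38% of all windows hold. In Hes5 the matches start 226 bases before the transcription start on the minus strand (TTCCCA) and 82 bases before it on the plus strand (TGGGAA), and in Hey2 207 and 3 bases before it on the same strands, where plus is the strand of the gene. Of all windows, 3.79% hold at least 2 matches.
Hes5, chr4:154960673-154960972, plus strand: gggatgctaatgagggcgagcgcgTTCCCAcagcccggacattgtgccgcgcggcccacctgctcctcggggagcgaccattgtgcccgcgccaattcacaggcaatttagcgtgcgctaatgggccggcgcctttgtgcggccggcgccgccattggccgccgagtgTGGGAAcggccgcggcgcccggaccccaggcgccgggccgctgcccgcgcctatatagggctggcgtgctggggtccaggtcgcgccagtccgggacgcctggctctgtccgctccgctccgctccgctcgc
Hey2, chr10:30842734-30843033, minus strand: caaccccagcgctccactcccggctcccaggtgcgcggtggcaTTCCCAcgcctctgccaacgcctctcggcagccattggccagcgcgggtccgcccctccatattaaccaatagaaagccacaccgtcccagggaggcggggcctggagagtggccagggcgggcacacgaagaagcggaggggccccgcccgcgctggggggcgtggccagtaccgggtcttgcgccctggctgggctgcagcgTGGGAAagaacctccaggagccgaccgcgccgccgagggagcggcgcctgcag
A match is a run of letters in these windows and not a measured binding site. Neither gene passed the test in these hearts. Hes5 differed by 0.20 (SE 0.21, limma adjusted p = 0.613) and Hey2 by -0.01 (SE 0.12, limma adjusted p = 0.960), and Hey1, which was likewise looked up after its values were seen, differed by -0.05 (SE 0.15, limma adjusted p = 0.873).

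Beyond the 10 genes, 72 other genes of the pathway were listed by role, from further ligands to nuclear factors, of which 66 had a probe and 59 were tested. By the brightest probe of each gene, 3 of the 59 were higher in SIRT1 KO hearts and 0 were lower, where 3.69% of 13594 named genes were higher and 0.897% lower, 4.58% in either direction. At an unadjusted p of 0.05, 14 of the 59 passed, beside 21.5% of all tested probes. Their median difference was 0.03, with a range of -0.33 to 0.80, and 33 were fitted above 0 and 26 below. The genotypes did not overlap for 10 of the 59, beside 13.7% of all tested probes. The 3 genes that passed were Hes2, Dlk2 and Tle2. Genes without a matched probe included Adam10, Numbl, Dtx3l, Hdac1 and Ccnd1, and the probes of Dll3, Dner, Aph1c, Itch, Maml3, Hes3 and Hes7 were too dim to test.

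**Figure D4:**
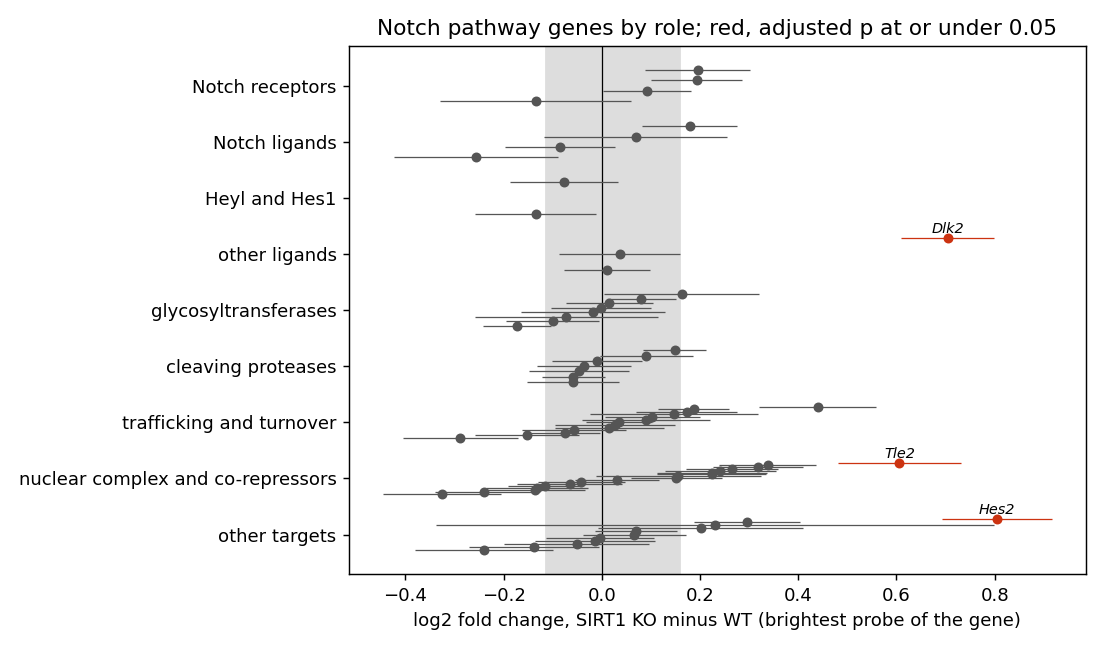
Fitted log2 difference, SIRT1 KO minus WT, with its SE, for the brightest probe of each Notch pathway gene, grouped by role, with grey marking the interquartile range of all tested probes and red an adjusted p at or below 0.05. The 3 red points are Dlk2, Tle2 and Hes2, and no receptor, ligand or target among the 10 core genes is red.

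Dlk2, a non-canonical ligand of the Delta-like family that lacks the receptor-binding domain of the canonical ligands, rose in SIRT1 KO hearts. It read -2.93, -3.14, -2.86 and -2.88 in the WT hearts and -2.25, -2.34, -2.07 and -2.34 in the SIRT1 KO hearts (probe A_51_P254299). Each SIRT1 KO heart was above each WT heart, with a clear gap. The difference was 0.70 (SE 0.10, limma adjusted p = 0.00472), a 1.63-fold level, and it passed in each of the 8 fits that leave out 1 heart, at 0.64 to 0.74. It also passed, at a smaller size, with median scaling (0.58), with normexp (0.53) and without scaling (0.48). Its relative Dlk1, an imprinted gene of fetal tissues, differed by 0.04 (limma adjusted p = 0.891).

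Hes2, a Hes family repressor, rose by 0.80 (SE 0.11, limma adjusted p = 0.00521), a 1.75-fold level. Its probe A_51_P303308 read -3.93, -3.73, -3.73 and -3.72 in the WT hearts and -3.17, -2.97, -2.69 and -3.07 in the SIRT1 KO hearts, without overlap. It passed in each of the 8 fits that leave out 1 heart, and with normexp the difference was 0.53 (adjusted p = 0.00444). A dimmer second probe, A_52_P263658, which was well above background on 1 WT and 3 SIRT1 KO arrays, differed by 0.44 and did not pass (SE 0.43, limma adjusted p = 0.591). Among the 11 tested other targets, Hes2 was the 1 that passed, and the next by p was Nrarp, a feedback inhibitor of Notch, with a difference of 0.30 (SE 0.11, limma adjusted p = 0.163).

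Tle2, a Groucho-type co-repressor that works with Hes proteins, rose by 0.61 (SE 0.12, limma adjusted p = 0.0278). Probe A_51_P175303 read 1.12, 0.80, 1.11 and 1.15 in the WT hearts and 1.77, 1.82, 1.35 and 1.65 in the SIRT1 KO hearts, again without overlap. It held in 1 of the 8 fits that leave out 1 heart, that without SIRT1 KO replicate 3, with differences of 0.52 to 0.70 and limma adjusted p between 0.0121 and 0.0776. It was lost with the methods' analysis of variance (adjusted p = 0.0849) and without a filter on dim probes (0.0597). It was also lost with the replicate number as a block (limma adjusted p = 0.0625) and without scaling, where the difference was 0.39 (0.0898). Of the 17 tested nuclear factors and co-repressors, 6 passed at an unadjusted p of 0.05, where 21.5% of all tested probes did, and the median difference was 0.15. In this group Cir1, a co-repressor that binds RBPJ, was read oppositely by its 2 probes, at 0.32 (SE 0.09, limma adjusted p = 0.0876) and -0.44 (SE 0.15, limma adjusted p = 0.146).

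The remaining groups held no gene that passed. Of 13 tested genes of trafficking and turnover, the smallest p was that of Dtx3, a Deltex family ubiquitin ligase, at 0.44 (SE 0.12, limma adjusted p = 0.0724) and 0.41 by its second probe (SE 0.14, limma adjusted p = 0.132). The genotypes did not overlap at the first of these probes. Nedd4, a ubiquitin ligase that acts on Notch, was read as 0.19 by its brighter and -0.23 by its dimmer probe, neither past the threshold (limma adjusted p = 0.179 and 0.153), and both without overlap. Of the 7 tested cleaving proteases, Psen2, a catalytic subunit of γ-secretase, differed by 0.15 without overlap (SE 0.06, limma adjusted p = 0.222) and Aph1b by 0.09 (limma adjusted p = 0.615), and the group's median was -0.04. Of the 8 glycosyltransferases, all tested, Poglut1 differed by -0.17 without overlap (SE 0.07, limma adjusted p = 0.191) and Xxylt1 by 0.08 (limma adjusted p = 0.543), and the median was -0.01.

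Much of the Notch pathway acts in endothelial, endocardial and mural cells, and the markers of those cells were read on the same arrays. In whole hearts, fewer cells of a type and less RNA per cell cannot be told apart. Of 14 endothelial markers, 0 passed in either direction and 12 were fitted below 0, with a median of -0.10. Their summed linear level, relative to the array's 75th percentile, was 95.2 to 106 in WT and 90.6 to 102 in SIRT1 KO hearts, and their mean log2 level was 1.86 ± 0.06 and 1.76 ± 0.08 (SD, n = 4 each). Eng, a receptor of endothelial cells, differed by -0.22 (limma adjusted p = 0.201) and the angiopoietin receptor Tek by -0.25 (limma adjusted p = 0.229).

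Among 9 arterial endothelial markers, 1 was lower and 0 higher, the median was -0.12 and the summed level was 29.4 to 34.9 in WT and 24.9 to 31.3 in SIRT1 KO hearts. The gene that fell was Gja4, a gap junction protein of arterial endothelium, at -0.40 (SE 0.09, limma adjusted p = 0.0345). It held in 1 of the 8 fits that leave out 1 heart, that without WT replicate 1, at limma adjusted p of 0.0372 to 0.0919. It was lost with the methods' analysis of variance (adjusted p = 0.0652), without a filter on dim probes (0.0729) and with quantile normalization (0.0519). With the replicate number as a block it was lost as well (limma adjusted p = 0.0626), and it was -0.62 without scaling. The kinase Bmx differed by -0.51 (SE 0.20, limma adjusted p = 0.185). Of 4 endocardial markers 0 passed, with a median of -0.20, a summed level of 3.41 to 5.79 in WT and 3.45 to 4.40 in SIRT1 KO hearts, and differences of -0.26 for Nfatc1 (limma adjusted p = 0.270) and -0.37 for Gata5 (limma adjusted p = 0.536). Of 10 mural and smooth muscle markers 0 passed, and 5 were fitted above 0 and 5 below, with a median of -0.06, a summed level of 170 to 204 in WT and 166 to 218 in SIRT1 KO hearts, and differences of -0.34 for Rgs5 (limma adjusted p = 0.230) and -0.24 for Myh11 (limma adjusted p = 0.207). The fitted differences of Notch4 (0.09) and Notch3 (0.19) lay above the medians of the endothelial and mural lists. That of Dll4 (-0.08) lay close to the endothelial median, and both Heyl probes (-0.13 and -0.24) lay below the mural one. Notch1 (-0.13) and Jag1 (-0.26) lay below the endothelial median, and Jag2 (0.18) and Dll1 (0.07) above it. Whether the share of these cells has a part in the Notch values was not tested.

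The defining genes of heart muscle were bright in all 8 samples. The 9 cardiomyocyte markers had a summed level of 1213 to 1331 in WT and 1304 to 1477 in SIRT1 KO hearts, a median difference of 0.10 and 0 calls by the brightest probe of each gene, although 1 dimmer probe of the myosin gene Myh7, named after its values were seen, passed. Fibroblast (7), macrophage (7) and erythroid (4) markers had 0 calls and medians of -0.02, -0.08 and -0.01, and the 5 epicardial markers had 0 calls and a median of -0.54, with all 5 fitted below 0 and a summed level of 15.8 to 18.53 in WT and 8.51 to 15.4 in SIRT1 KO hearts. Of neighbouring tissues, 0 of 5 lung markers were bright enough to test, the 1 tested thymus marker did not pass, and 4 liver markers had 0 calls, a median of 1.34 and a summed level of 4.03 to 13.3 in WT and 4.91 to 59.7 in SIRT1 KO hearts. Of the 2 tested Schwann and neuronal markers, Sox10 was higher by 0.80 (SE 0.15, limma adjusted p = 0.0198), and it did not pass when WT replicate 2, 3 or 4 was left out (limma adjusted p = 0.0538, 0.0545 and 0.0560) or with the methods' analysis of variance (adjusted p = 0.0797). With normexp its difference was 0.36. The part of these cells in the Notch values was not tested.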

How the data were processed

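Each of 8 Agilent whole mouse genome arrays held the Cy3-labelled cRNA of 1 E18.5 heart, made from 500 ng of RNA. The deposited intensity values are the processed signal of Agilent Feature Extraction, from which the authors' software had subtracted the background but which was not scaled between arrays, and the file headers give software 12.0.0.7 and build mm9. The deposited intensity table of the series equals that signal in 100% of spots. Group and replicate came from the sample labels, and whether embryos shared litters is not given in the sources used here.

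Here the 75th percentile over non-control spots was subtracted from the log2 signal, outlier spots (98 to 152 per array) were dropped and spots of a probe were averaged. Probe accessions were matched to RefSeq names of GRCm38.p6 (28223 probes, 68.5%, 19096 genes). Probes well above background on at least 4 arrays were tested with limma 3.58.1 (R 4.3.3; lmFit, eBayes) and Benjamini-Hochberg adjustment at 0.05 over 25615 probes, beside exact two-sided permutation tests. A gene with several probes counted by its brightest. Other steps used Python 3.11.15, numpy 2.4.6, pandas 2.3.3, scipy 1.17.1 and matplotlib 3.10.9. On simulated arrays (25535 probes, 200 changed by a log2 fold change of 1) limma recovered 83.5% of the changed probes, and 6.18% of its calls were false. By brightest probe, the fitted differences were smaller, at -0.26 to 0.20 for the core genes and -0.33 to 0.80 for the other pathway genes. Recovery at those sizes was not simulated. The methods' analysis of variance (genotype as its only factor) was an alternative, beside those named in the closing section. Array correlations over probes were 0.9896 to 0.9951 within and 0.9855 to 0.9914 between genotypes, so that no arrays were merged. Precision is limited by the number of arrays.

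The Notch genes, the 6 pathway lists and the 13 marker lists were chosen with earlier results of these data known. Named genes were the 10 core genes with every probe, in each pathway and vascular marker list those past the threshold and the 2 with the smallest p, from other marker lists those past the threshold, the 2 genes nearest to each core gene (1 of them is not reported here), and Sirt1. Hes5, Hey1 and Hey2 fall outside this rule. No gene list was tested as a set.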

Additional observations from a re-analysis of the deposited data

Results flagged for a closer look

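Each of the 12 tested Notch probes was searched in each genotype for a heart that stood apart from the other 3, 24 groups in all, and 1 was found. It was Notch1 (probe A_52_P183088) in WT replicate 2, at -0.35 where the other WT hearts lay between -1.02 and -0.92, so that the gap to the nearest heart took a 0.847 share of the group's range, above Dixon's critical share for 4 values. Chance gives such a heart in about 1 in 20 groups. Without this heart the difference between genotypes was 0.02.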

How the results depend on the processing

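Of 216 values for the 12 Notch probes under the alternatives, 195 kept their direction and their side of the threshold, 19 changed sign and 2, both of the dimmer Heyl probe, passed the threshold. The count of Notch probes higher in SIRT1 KO hearts was 0 under each alternative, and the count of lower probes was 0 except for 1 with median scaling and 1 without scaling. Where arrays were not scaled, the differences became -0.15 for Dll1, -0.0406 for Jag2, -0.024 for Notch2 (A_52_P289213), -0.19 for Notch2 (A_52_P448796), -0.0264 for Notch3 and -0.13 for Notch4, and 9 other pathway genes were lower in SIRT1 KO hearts. With median scaling they were -0.0595 for Dll1, -0.10 for Notch2 (A_52_P448796) and -0.036 for Notch4, with quantile normalization -0.15 for Notch2 (A_52_P448796), and with normexp 0.00546 for Dll4. These settings moved the median of all probes from 0.01 to -0.21, -0.12, -0.02 and 0.05, in that order, and the median of the 10 genes to -0.22, -0.13, -0.05 and 0.04. Leaving out 1 heart gave -0.0694 to 0.22 for Dll1, -0.22 to 0.0184 for Notch1 and -0.10 to 0.16 for Notch2 (A_52_P448796). The count of other pathway genes higher in SIRT1 KO hearts was 2 to 4.

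Over all probes, 1017 were higher and 233 lower. Higher counts were 435 by analysis of variance, 1663 with array weights, 639 without scaling, 2221 with normexp, 672 with quantile normalization and 572 to 1384 with 1 heart left out. Lower counts were 111, 614, 5713, 474 and 379 in the same order, 1104 with median scaling, 106 without a filter and 82 to 441 with 1 heart left out. The share of calls that were higher was 81.4%, and 38.1% with median scaling, 10.1% without scaling and 63.9% with quantile normalization. The causes were not tested.

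With the replicate number as a block, 949 probes were higher and 236 lower, and no call of a Notch probe changed, while Tle2 (adjusted p = 0.0625), Gja4 (0.0626) and the higher Sirt1 probe (0.0645) no longer passed. Deviations of same-numbered hearts correlated at 0.204, 0.207, 0.0562 and 0.141, each the best match of its WT heart. This is a hint from the data and not from the design. The labels give nothing but the number, and whether same-numbered hearts share more than that was not tested. Normexp was chosen after seeing the data and used the median signal, since the planned version on the mean signal was not run.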
